A study of Mus musculus with 28 samples.

Results

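The comparison described here is the response to ultraviolet B light (UVB) of skin whose keratinocytes carry a Cre-driven deletion of Vsir, the gene for the inhibitory immune checkpoint protein VISTA. It rests on 8 of the 28 bulk RNA-seq libraries of the series, chosen by their labels and table columns alone, and covers every expressed gene. The UVB-exposed group (cKO_UV, n = 4) and the unexposed group (cKO_NoUV, n = 4) were both K14creVsirfl/fl mice. The same experiment held floxed mice without Cre, Vsirfl/fl, after UVB (FL_UV, n = 4) and without it (FL_NoUV, n = 4), which the design text calls littermate controls. These mice were female and 12 weeks of age. Hair was shaved and then removed with Nair 5 days ahead of exposure, and the UVB dose was 500 mJ/cm². The sample titles and the design text place tissue collection 3 h after UVB, whereas the treatment protocol gives 1 day, and the labels do not settle which is right. The K14 promoter drives Cre in basal keratinocytes and their progeny, while the libraries hold all cells of the skin, so a difference in bulk RNA can be fewer cells of a type or less RNA per cell, which cannot be told apart. The design text calls the replicates biological, but no label ties a library to an animal.

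UVB is absorbed by DNA and leaves pyrimidine dimers that stall transcription and replication. Keratinocytes answer through stress kinases that switch on immediate early transcription factors, through p53, which drives cell cycle arrest and apoptosis genes, and through NF-κB, which drives cytokines, chemokines and vascular adhesion molecules. VISTA is best known on myeloid and T cells, where it restrains immune activation.

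The targeted gene came first as a check of the labels. Vsir (chr10:60346851-60372684 on GRCm38) had 14.5, 39.6, 24.8 and 33.2 CPM (reads of a gene scaled to a common library size) in cKO_UV and 17.0, 35.1, 38.3 and 45.0 CPM in cKO_NoUV, against 25.0, 27.8, 36.3 and 29.1 CPM in FL_UV and 19.4, 22.5, 38.5 and 20.8 CPM in FL_NoUV. The groups overlapped, and no difference between genotypes was called by edgeR's quasi-likelihood test: the log2 fold change of cKO over FL was -0.07 after UVB (adjusted p = 0.986) and 0.41 without UVB (adjusted p = 0.923). A count over the whole gene does not isolate the floxed part, and other skin cells keep the gene, so these values do not check the deletion. UVB did not move Vsir past the threshold within cKO skin either (log2 fold change -0.27, SE 0.32, adjusted p = 0.644).

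The 8 cKO libraries held 7509742 to 31138604 gene-assigned reads, the smallest being cKO_UV 3, and mitochondrial genes took 6.20% to 10.3% of them. In a principal component analysis of these libraries the first axis (36.3% of the variance) set cKO_NoUV 1 apart from the other 7. The second (25.2%) placed the 4 cKO_UV libraries between 9.78 and 53.1, against -54.8 to -39.3 for cKO_NoUV 2 to 4, while cKO_NoUV 1, at 10.7, lay among the exposed libraries. Library cKO_NoUV 1 carried 10405 CPM summed over 20 genes of the growing (anagen) hair follicle, against 80.5 to 142 CPM in the other 3 cKO_NoUV libraries and 50.7 to 421 CPM in cKO_UV. The labels give all libraries of the experiment the same batch. The numbers that head the table's columns fall into 3 ranges, for replicate 1, replicates 2 and 3, and replicate 4, each holding all 4 groups. What they stand for is not given in the sources used here, and the fit with the replicate number as a block also separates these ranges.

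Of 19718 genes tested, 1917 (9.72%) were called at an adjusted p under 0.05 in cKO_UV against cKO_NoUV, 901 higher (4.57%) and 1016 lower (5.15%). The rises were larger than the falls: 600 genes rose and 180 fell at least 2-fold, and 177 rose and 26 fell at least 4-fold. Protein-coding genes of the GENCODE M21 annotation made up 458 of the 901 called higher, 996 of the 1016 called lower and 15174 of the 19718 tested. The counts by fold change were not split by gene type. In 821 of the genes called higher and 926 of those called lower the 4 cKO_UV and 4 cKO_NoUV libraries did not overlap, which over all genes tested held for 8.59% in the higher and 9.05% in the lower direction. Genes named as largest rises or falls were picked among those without overlap, so in them its absence is no added support. The median log2 fold change of all genes tested was 0.01. Without cKO_NoUV 2 or cKO_NoUV 3 the calls numbered 1195 and 1178. The genes called higher numbered 498, 509, 598 and 580 without cKO_NoUV 2, cKO_NoUV 3, cKO_NoUV 4 or cKO_UV 3, and the genes called lower 669 and 625 without cKO_NoUV 3 or cKO_UV 4. With the replicate number as a block 1539 genes were called lower.

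Among the 24 pathway lists, chemokines and cytokines held the largest rises of single genes. Ccl7 (ENSMUSG00000035373.3, chr11:82045712-82047525), a ligand that draws monocytes, had 10.3, 58.1, 37.4 and 19.3 CPM in cKO_UV, against 3.44, 3.30, 1.81 and 1.26 CPM in cKO_NoUV (log2 fold change 3.67, SE 0.54, adjusted p = 0.00106). All 4 cKO_UV libraries lay above all 4 cKO_NoUV libraries. Its neighbours on chromosome 11 rose with it: Ccl2 had 8.68, 43.4, 44.0 and 14.6 CPM in cKO_UV, against 4.27, 3.93, 3.71 and 2.13 CPM in cKO_NoUV (log2 fold change 2.97, SE 0.48, adjusted p = 0.00159). Ccl12 had 3.33 to 8.01 CPM in cKO_UV and 0.468 to 0.912 CPM in cKO_NoUV (log2 fold change 2.92, SE 0.43, adjusted p = 9.26e-04). In each of these 3 genes cKO_UV 1 had the lowest level among the exposed libraries. Cxcl1, which draws neutrophils through the receptor Cxcr2, had 4.24, 9.01, 13.6 and 6.01 CPM in cKO_UV, against 0.622, 1.69, 1.04 and 0.544 CPM in cKO_NoUV (log2 fold change 3.05, SE 0.48, adjusted p = 0.00126). Of 19 chemokines tested, 5 rose and none fell, against 4.57% of all genes called higher, and the list's median log2 fold change was 0.87. The fifth riser was Ccl19 (log2 fold change 2.41). Cxcl10, an interferon-induced T cell chemokine, stayed under the threshold with 4.42 ± 0.82 CPM in cKO_UV and 2.81 ± 0.89 CPM in cKO_NoUV (SD, n = 4 each, log2 fold change 0.65, adjusted p = 0.315).

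Il6 (ENSMUSG00000025746.12, chr5:30013114-30019981), a cytokine of acute inflammation, had 2.84, 4.13, 9.74 and 5.76 CPM in cKO_UV, against 0.746, 0.196, 0.502 and 0.460 CPM in cKO_NoUV. The groups lay apart, with a log2 fold change of 3.52 (SE 0.53, adjusted p = 0.00107). Tnf rose by 1.32 on the log2 scale (SE 0.30, adjusted p = 0.0129), with 3.91 to 9.62 CPM in cKO_UV and 1.97 to 3.65 CPM in cKO_NoUV. Il1a, the interleukin-1 form that keratinocytes store, was the 1 cytokine called lower, with 9.75, 9.22, 19.9 and 8.84 CPM in cKO_UV and 22.1, 39.3, 43.7 and 22.0 CPM in cKO_NoUV (log2 fold change -1.44, SE 0.40, adjusted p = 0.0328). Of 16 cytokines tested 5 rose and 1 fell, against 4.57% of all genes called higher and 5.15% called lower. The others called higher were Il1b, Lif and Osm. The count of risers was 2 without cKO_NoUV 2, cKO_NoUV 3, cKO_NoUV 4, cKO_UV 2 or cKO_UV 3 and 3 without cKO_UV 4, with Il6 and Tnf called in every leave-one-out fit. With the replicate block Lif and Osm were not called and Tslp was. The fall of Il1a was not called without the filter, with hair follicle and muscle marker scores as covariates, or without cKO_NoUV 2, cKO_NoUV 3, cKO_UV 1, cKO_UV 2 or cKO_UV 4.

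The proximal promoters of 4 of the risers are shown because they carry short matches to the binding motifs of the stress-activated factors named above. Each run is the 200 bases before the first start that RefSeq lists (build GRCm38.p6), written 5′ to 3′ on the gene's strand. Capitals in Cxcl1 and Il6 mark the NF-κB consensus and TGACGT, the core of the cyclic AMP response element (CRE). In Atf3 they mark the same core and in Sele the AP-1 motif TGANTCA. Both strands were searched, and a TGACGT match can lie inside the full CRE TGACGTCA.
Cxcl1 (chr5:90891045-90891244, plus strand): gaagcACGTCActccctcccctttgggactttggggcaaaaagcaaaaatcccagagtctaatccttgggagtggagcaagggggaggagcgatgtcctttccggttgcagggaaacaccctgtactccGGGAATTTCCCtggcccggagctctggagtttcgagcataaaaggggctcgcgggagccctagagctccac
Il6 (chr5:30012914-30013113, plus strand): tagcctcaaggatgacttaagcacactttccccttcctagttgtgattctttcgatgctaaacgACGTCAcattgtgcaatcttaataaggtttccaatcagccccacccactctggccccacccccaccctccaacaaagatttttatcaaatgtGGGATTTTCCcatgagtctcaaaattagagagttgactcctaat
Atf3 (chr1:191183334-191183533, minus strand): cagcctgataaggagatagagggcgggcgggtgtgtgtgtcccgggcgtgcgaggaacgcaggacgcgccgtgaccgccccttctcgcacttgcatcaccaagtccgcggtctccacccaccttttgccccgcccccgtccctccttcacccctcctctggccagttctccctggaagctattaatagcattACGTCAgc
Sele (chr1:164048034-164048233, plus strand): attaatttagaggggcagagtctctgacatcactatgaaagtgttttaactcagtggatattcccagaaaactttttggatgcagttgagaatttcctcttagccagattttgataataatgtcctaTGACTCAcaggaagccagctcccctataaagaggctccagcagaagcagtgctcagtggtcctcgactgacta
Counted back from the start, the first NF-κB match began at base -71 in Cxcl1, where it overlaps another, and at base -44 in Il6. TGACGT was found in 16.8% of 404 promoters of genes called higher, 7.46% of 778 promoters of genes called lower and 8.57% of the 12755 promoters of all tested genes in the table. The NF-κB consensus was found in 4.70%, 3.08% and 3.6% of the same sets, and a narrower form of it, tried first, in 2.97%, 0.771% and 1.22%. TGANTCA was found in 4.70%, 2.19% and 4.23%, and the serum response element consensus in 0.495%, 0.900% and 0.886%. These shares describe letters in a window and say nothing of what was bound.

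Immediate early genes, the transcription factors and regulators that stress kinases switch on without new protein synthesis, were the list with the most called risers. Of 23 tested, 9 rose and none fell, against 4.57% of all genes called higher, with a median log2 fold change of 0.55 against 0.01 over all genes. Atf3 (chr1:191170296-191218039), a stress-induced factor that binds CRE sites, had 39.4, 44.2, 33.1 and 27.3 CPM in cKO_UV, against 6.05, 10.5, 6.25 and 11.2 CPM in cKO_NoUV (log2 fold change 2.09, SE 0.26, adjusted p = 2.90e-04). Jun, a core subunit of AP-1, had 157, 217, 206 and 174 CPM in cKO_UV, against 76.0, 88.6, 87.9 and 73.3 CPM in cKO_NoUV (log2 fold change 1.21, SE 0.14, adjusted p = 2.50e-04). In both genes the groups did not overlap. Ier3 (1.89) and Btg2 (1.12) also rose, while Junb, Jund, Fosl1, Maff and Ier2 made up the rest of the called members. Fos, the partner of Jun, had 148, 102, 135 and 101 CPM in cKO_UV and 23.2, 35.8, 57.7 and 71.0 CPM in cKO_NoUV, groups that did not overlap, and missed the threshold (log2 fold change 1.37, SE 0.46, adjusted p = 0.0721). With the replicate block Fos was called (log2 fold change 1.47, SE 0.40, adjusted p = 0.0450) and Fosl1 was not. Of 10 dual specificity phosphatases, which switch off MAP kinases, Dusp8 (log2 fold change 1.17, SE 0.20, adjusted p = 0.00200) and Dusp6 (1.44, SE 0.34, adjusted p = 0.0147) rose, against 4.57% of all genes. Dusp6 was not called without cKO_NoUV 2 or cKO_NoUV 3, or without the filter.

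**Figure D1:**
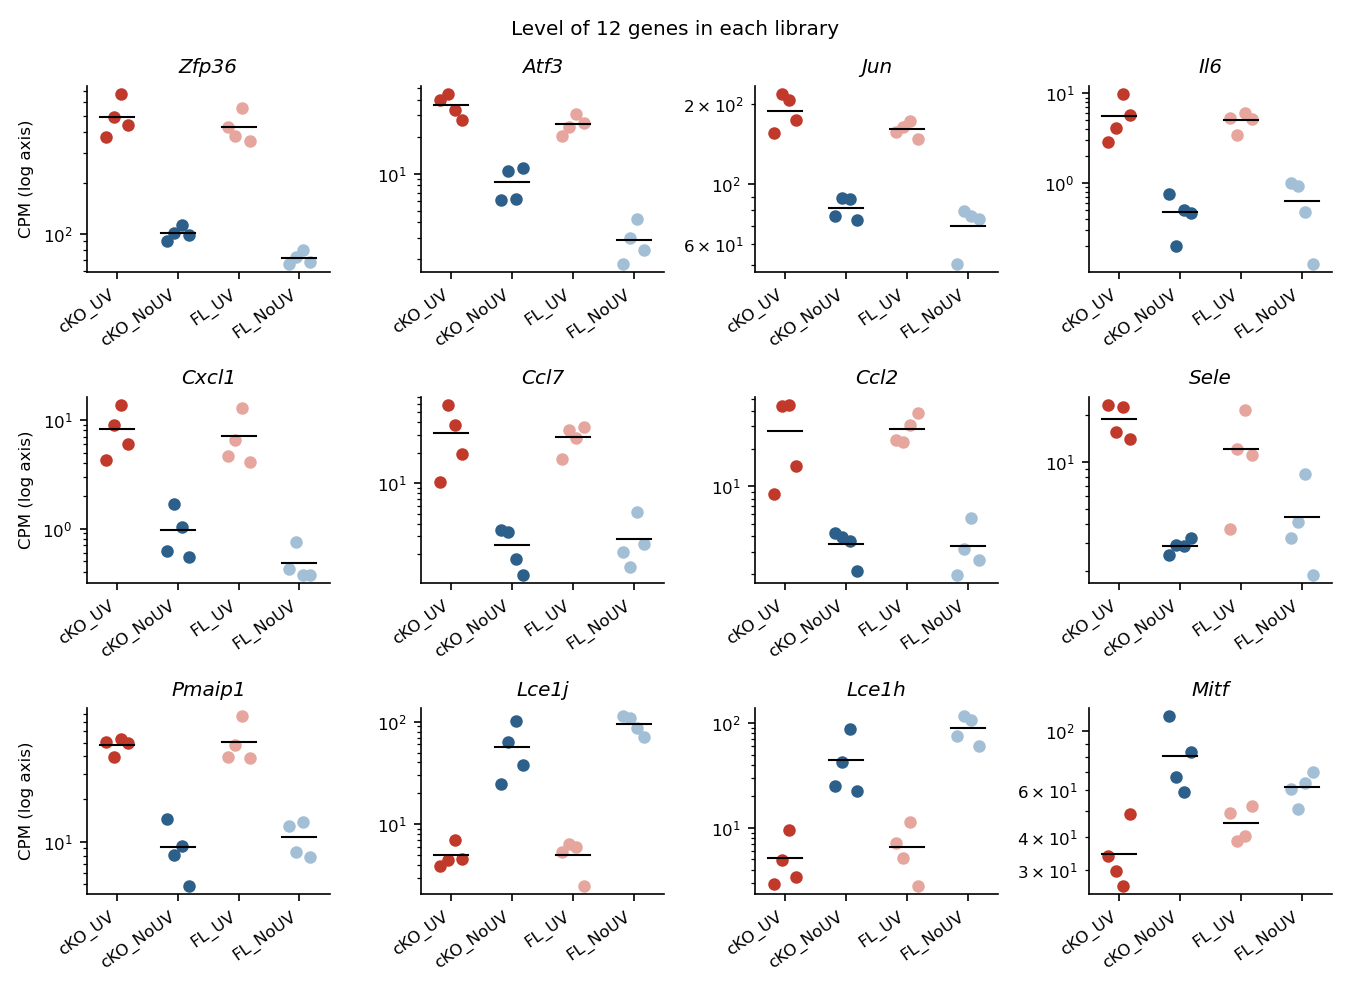
Level of 12 genes in each library as CPM on a log axis, each point a library and each bar the mean of the 4 libraries of a group. In Zfp36, Atf3, Jun, Il6, Cxcl1, Ccl7, Ccl2, Sele and Pmaip1 all cKO_UV points lie above all cKO_NoUV points, and in Lce1j, Lce1h and Mitf all lie below.

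Some feedback inhibitors of inflammation rose, and most of the list was not called. Zfp36, an RNA-binding protein that speeds the decay of cytokine mRNAs, had the smallest adjusted p among the named genes, with 375, 489, 668 and 439 CPM in cKO_UV and 90.8, 101, 112 and 98.4 CPM in cKO_NoUV (log2 fold change 2.29, SE 0.18, adjusted p = 1.28e-05). Socs3, which blocks signalling by Il6-type cytokines, had 81.3, 63.6, 50.1 and 62.4 CPM in cKO_UV and 30.2, 10.1, 9.63 and 15.4 CPM in cKO_NoUV (log2 fold change 1.98, SE 0.39, adjusted p = 0.00585). Ptx3, a soluble pattern recognition protein, had 11.9, 5.53, 2.47 and 3.43 CPM in cKO_UV and 1.20, 0.472, 0.602 and 0.502 CPM in cKO_NoUV (log2 fold change 3.08, SE 0.51, adjusted p = 0.00162). Of 14 members of this list 4 rose and none fell, against 4.57% of all genes called higher, the other being Socs1, and 5 lay below 0. Tnfaip3 and Nfkbia, NF-κB feedback genes, were at log2 fold changes of -0.01 and 0.08 and were not called.

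Adhesion molecule genes of the endothelial list, whose products let leukocytes leave the blood, rose in cKO skin while its other members were not called. Which cells held this RNA was not tested. Of all members 10 lay above 0 and 2 below, with a median log2 fold change of 0.47. Sele (E-selectin, chr1:164048234-164057677) had 23.1, 15.7, 22.6 and 14.1 CPM in cKO_UV, against 2.53, 2.91, 2.88 and 3.22 CPM in cKO_NoUV (log2 fold change 2.71, SE 0.47, adjusted p = 0.00234). Icam1 had 36.3, 64.7, 57.6 and 55.3 CPM in cKO_UV, against 16.4, 22.5, 19.0 and 26.1 CPM in cKO_NoUV (log2 fold change 1.35, SE 0.22, adjusted p = 0.00162). Both were apart in every library. Selp (1.51, adjusted p = 0.0286) and Vcam1 (1.40, adjusted p = 0.0487) were the remaining calls among 12 endothelial genes, against 4.57% of all genes called higher. The count was 2 without cKO_NoUV 1 or cKO_NoUV 3. Selp was also lost without cKO_NoUV 4, cKO_UV 1 or cKO_UV 3, and Vcam1 in 13 of the 16 leave-one-out fits. With hair follicle and muscle marker scores as covariates Vcam1 had a log2 fold change of 0.75 (adjusted p = 0.351), against 1.40 without covariates, and it was also lost without the filter and in a fit of the 2 cKO groups alone. Pecam1 and Cdh5, which mark endothelium as such, had log2 fold changes of 0.32 and 0.49.

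p53 target genes rose in part. Pmaip1 (Noxa, a pro-apoptotic BH3-only protein) had 50.5, 39.3, 52.8 and 49.5 CPM in cKO_UV, against 14.4, 8.02, 9.33 and 4.90 CPM in cKO_NoUV (log2 fold change 2.39, SE 0.30, adjusted p = 3.47e-04). Cdkn1a (p21, a cyclin-dependent kinase inhibitor) had 206, 264, 348 and 270 CPM in cKO_UV, against 155, 160, 146 and 139 CPM in cKO_NoUV (log2 fold change 0.86, SE 0.16, adjusted p = 0.00296). The groups did not overlap in either. Tnfrsf10b, a death receptor, rose by 1.42 (SE 0.20, adjusted p = 6.00e-04) and Plk2 by 1.39 (SE 0.25, adjusted p = 0.00308). Of 26 targets 6 rose, against 4.57% of all genes, Gadd45a and Aen being the other two, none fell, and the median was 0.20. Bbc3, Bax and Mdm2, equally well known targets, had log2 fold changes of -0.10, 0.27 and 0.37 and were not called. Of 17 nucleotide excision repair genes, which remove UVB lesions, 1 was called, a share near the 4.57% of all genes called higher: the endonuclease gene Ercc5 (log2 fold change 0.44, SE 0.12, adjusted p = 0.0311), not called without cKO_NoUV 2, cKO_NoUV 3, cKO_NoUV 4, cKO_UV 1, cKO_UV 3 or cKO_UV 4, without the filter, in a fit of the 2 cKO groups alone, or with hair follicle and muscle marker scores as covariates.

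Genes of the epidermal growth factor (EGF) system moved both ways. Hbegf, a ligand, had 48.4, 40.2, 63.4 and 38.5 CPM in cKO_UV, against 13.4, 14.6, 13.8 and 7.41 CPM in cKO_NoUV (log2 fold change 1.95, SE 0.26, adjusted p = 4.51e-04). The receptor Egfr (chr11:16752203-16918158) had 252, 237, 245 and 256 CPM in cKO_UV, against 487, 362, 380 and 397 CPM in cKO_NoUV (log2 fold change -0.72, SE 0.14, adjusted p = 0.00467). Lrig1, a membrane protein that restrains Egfr, had 76.4, 51.4, 54.6 and 76.8 CPM in cKO_UV, against 125, 164, 168 and 141 CPM in cKO_NoUV (log2 fold change -1.20, SE 0.16, adjusted p = 5.47e-04). None of these 3 overlapped between the groups. Of 13 members 2 rose and 3 fell, against 4.57% of all genes called higher and 5.15% called lower. The other riser was the feedback inhibitor Errfi1, called in the full fit with a log2 fold change of 0.67 and lost in several fits with a library left out: the count of risers was 1 without FL_NoUV 2, FL_NoUV 3, FL_UV 1, FL_UV 3, cKO_UV 2, cKO_UV 3, cKO_UV 4 or any cKO_NoUV library, in a fit of the 2 cKO groups alone, and with hair follicle scores, alone or with muscle scores, as covariates. The other gene called lower was Erbb3 (-0.63, adjusted p = 0.023), lost without cKO_NoUV 3, cKO_NoUV 4, cKO_UV 1, cKO_UV 2 or cKO_UV 4, and with both scores as covariates. By limma-voom 5 members were called lower.

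The interferon-stimulated genes, which defend against virus and mark type I interferon signalling, showed small differences. Of 33 tested 2 were called higher, against 4.57% of all genes, and the median log2 fold change was 0.21. Ifit1 had 13.5, 16.4, 8.23 and 10.3 CPM in cKO_UV, against 6.67, 6.92, 6.45 and 6.40 CPM in cKO_NoUV (log2 fold change 0.88, SE 0.24, adjusted p = 0.0324). The levels of Stat2 were 51.1, 50.1, 42.8 and 45.3 CPM in cKO_UV and 34.0, 33.2, 32.1 and 33.5 CPM in cKO_NoUV (log2 fold change 0.51, SE 0.16, adjusted p = 0.0483). Neither overlapped between groups, yet neither call was stable: with the replicate block neither was called, and the count was 0 without any 1 of the 4 cKO_NoUV libraries, cKO_UV 1 or cKO_UV 2, and 1 without FL_NoUV 1, FL_NoUV 2, FL_NoUV 4, FL_UV 1, FL_UV 3, cKO_UV 3 or cKO_UV 4. Isg15 (0.79) and Irf7 (-0.09) were not called. The DNA sensing adaptor Sting1 rose, with 14, 19.9, 13.3 and 26.4 CPM in cKO_UV and 9.78, 8.96, 7.79 and 8.00 CPM in cKO_NoUV (log2 fold change 1.10, SE 0.26, adjusted p = 0.0145), and was lost without cKO_UV 4. Without the filter no interferon-stimulated gene was called, and limma-voom called 4. With the replicate block Irf1, among the genes of interferon ligands and sensors, was called as well as Sting1. None of the 15 genes on the antigen presentation list was called by edgeR in the unpaired fit. The list's median was 0.25 there, against -0.08 with hair follicle and muscle marker scores as covariates. Of this list the replicate block called H2-K1, H2-D1 and Gbp2 higher, Gbp2 being the gene of an interferon-inducible GTPase. None of 12 checkpoint genes and VISTA partners was called by edgeR in the unpaired fit. Without cKO_UV 1 it called 1 lower, DESeq2 called 2 lower and limma-voom 1, and the replicate block called Cd276 and Vtcn1 lower. Cd274 (PD-L1) had 27.7, 23.4, 31.3 and 43.3 CPM in cKO_UV and 16.5, 25.5, 23.9 and 34.6 CPM in cKO_NoUV (log2 fold change 0.32, adjusted p = 0.378).

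Clock and glucocorticoid-responsive genes were called more often higher than lower. The hour of collection is not among the sample details used here, and its part in these calls was not tested. Per1 and Per2 encode the repressors of the circadian clock. Per1 had 140, 159, 223 and 188 CPM in cKO_UV, against 80.1, 82.2, 64.3 and 48.8 CPM in cKO_NoUV (log2 fold change 1.37, SE 0.27, adjusted p = 0.00549). Per2 had 27.7, 18.2, 16.3 and 20 CPM in cKO_UV, against 10.9, 5.46, 2.41 and 3.01 CPM in cKO_NoUV (log2 fold change 1.92, SE 0.42, adjusted p = 0.00947). Npas2, an activator of the clock, was lower, with 4.77, 9.90, 9.05 and 10.9 CPM in cKO_UV and 9.37, 26.4, 21.8 and 36.0 CPM in cKO_NoUV, where 1 cKO_NoUV library overlapped the exposed ones (log2 fold change -1.43, SE 0.32, adjusted p = 0.0101). Of 18 clock genes 7 rose and 1 fell, against 4.57% of all genes called higher and 5.15% called lower. The risers numbered 3 without cKO_NoUV 3, cKO_UV 2 or cKO_UV 4 and 4 without cKO_NoUV 2, cKO_NoUV 4 or cKO_UV 1 and without the filter, and Npas2 was not called in a fit of the 2 cKO groups alone. Cebpd, a transcription factor induced by glucocorticoids and by Il6, had 49.3, 57.4, 64.3 and 88.0 CPM in cKO_UV, against 14.6, 13.3, 11.5 and 12.9 CPM in cKO_NoUV (log2 fold change 2.31, SE 0.39, adjusted p = 0.00206). Tsc22d3 (GILZ, a glucocorticoid-induced inhibitor of inflammation) had 111 to 154 CPM in cKO_UV and 33.7 to 60.5 CPM in cKO_NoUV (log2 fold change 1.34, SE 0.33, adjusted p = 0.0180). Of 15 glucocorticoid-responsive genes 6 rose and none fell, with a median of 1.15, against 4.57% and 5.15% of all genes. Of the list 3 rose without cKO_NoUV 2, cKO_NoUV 3, cKO_UV 1, cKO_UV 3 or cKO_UV 4. One of the 6 was Trim63, a muscle ubiquitin ligase, which the replicate block did not call. DESeq2 and the fit with hair follicle scores as a covariate each called 11 higher, and the fit without the filter 1. With hair follicle and muscle marker scores as covariates Tsc22d3 was at 0.82 and Trim63 at 1.12, and neither was called.

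Oxidative, protein-folding and heat stress genes responded singly. Srxn1, which repairs peroxiredoxins, had 58.6, 51.9, 67.1 and 57.2 CPM in cKO_UV, against 24.8, 26.2, 30.6 and 21.4 CPM in cKO_NoUV (log2 fold change 1.18, SE 0.18, adjusted p = 0.00124). Txnrd1, another target of the antioxidant factor NRF2, was lower, with 78.2, 62.9, 67.2 and 78.7 CPM in cKO_UV and 166, 125, 131 and 119 CPM in cKO_NoUV (log2 fold change -0.92, SE 0.17, adjusted p = 0.00373). Of 15 NRF2 targets 2 rose (Srxn1 and Fth1) and 1 fell, against 4.57% of all genes called higher and 5.15% called lower. Without cKO_NoUV 1, cKO_NoUV 2, cKO_NoUV 4, cKO_UV 2, cKO_UV 3 or cKO_UV 4 the risers numbered 1, Fth1 being lost, and without cKO_NoUV 2 the fallers numbered 2. With the replicate block 3 rose and 3 fell, Ftl1, Gclc and Gclm being added. Fth1 was also lost in a fit of the 2 cKO groups alone and with hair follicle and muscle marker scores as covariates. Of 12 unfolded protein and integrated stress genes, Ddit3 (log2 fold change 0.94, SE 0.19, adjusted p = 0.00674) and Dnajb9 (1.04, SE 0.23, adjusted p = 0.00894) rose, against 4.57% of all genes. Of 12 heat shock genes Hsp90aa1, Hspa1a and Bag3 rose by 0.94, 0.64 and 0.55, against 4.57% of all genes called higher. The heat shock count was 1 without cKO_NoUV 1, cKO_UV 2 or cKO_UV 3 and 0 without cKO_NoUV 3. It was 1 with hair follicle and muscle marker scores as covariates. Of the unfolded protein and integrated stress list 1 was called higher without the filter and 4 by limma-voom.

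**Figure D2:**
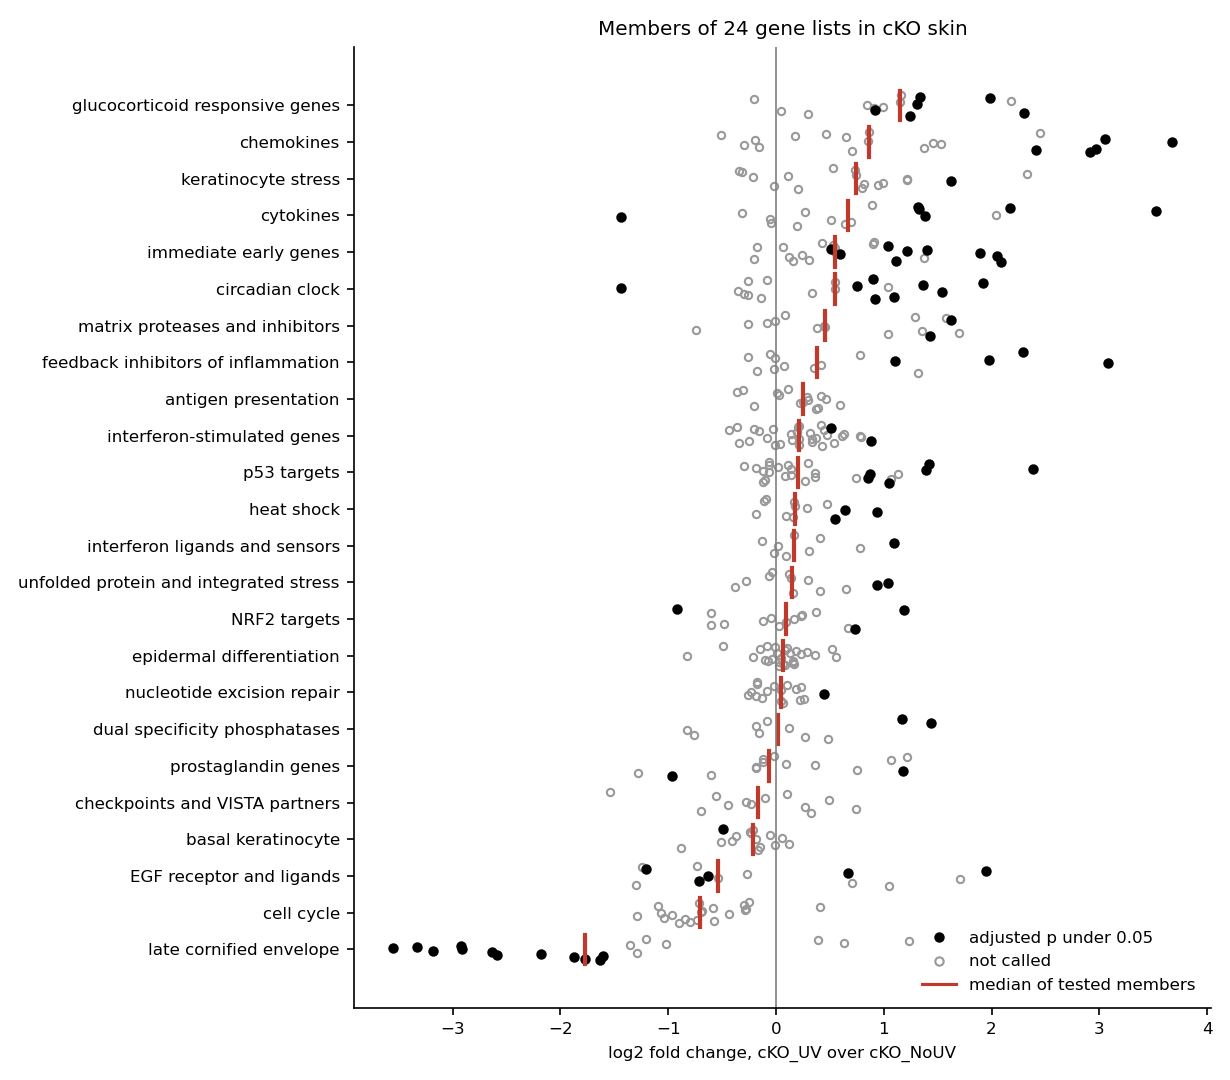
Log2 fold change of cKO_UV over cKO_NoUV for each tested member of 24 gene lists, filled where the adjusted p was under 0.05, with the list's median as a bar. Lists run from the late cornified envelope at the bottom (median -1.77) to the glucocorticoid-responsive genes at the top (median 1.15).

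Among the same 24 lists, the late cornified envelope (Lce) genes gave the largest falls. They encode small proteins of the outermost, dead cell layers, sit in a cluster on chromosome 3 and have close copies, so reads may be divided among them and single members are uncertain. Lce1j (ENSMUSG00000068887.5, chr3:92788840-92790514) had 3.87, 4.49, 6.99 and 4.57 CPM in cKO_UV, against 24.9, 63.7, 102 and 37.7 CPM in cKO_NoUV (log2 fold change -3.55, SE 0.41, adjusted p = 2.50e-04). The highest exposed library was under the lowest unexposed one. Lce1k, Lce1h, Lce1l, Lce1i and Lce1d followed with log2 fold changes of -3.33, -3.18, -2.93, -2.91 and -2.59, each with no overlap and adjusted p-values of 0.00134 to 0.00233. Of 19 Lce genes tested 12 fell and none rose, against 5.15% of all genes called lower, with a median of -1.77. All 12 were Lce1 genes. Members of the Lce3 group, which are known for induction on barrier damage, were at -1.20 to 1.23 and were not called. No setting tried moved the count of 12 by over 1.5 times, although Lce1e (-2.18) was not called without cKO_NoUV 3, without the filter or with hair follicle and muscle marker scores as covariates.

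Promoters of 3 Lce1 genes show stretches that several of them share. Each run is the 100 bases before the first RefSeq start (GRCm38.p6). Capitals mark ACTGTCTCACA, the longest stretch found in at least 8 promoters of Lce1 genes called lower, and TCAGAATAAAA, the longest such stretch sharing no 6 bases with the other.
Lce1h (chr3:92765066-92765165, minus strand): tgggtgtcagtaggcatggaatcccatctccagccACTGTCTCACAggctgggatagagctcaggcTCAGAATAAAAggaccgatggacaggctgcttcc
Lce1e (chr3:92709075-92709174, minus strand): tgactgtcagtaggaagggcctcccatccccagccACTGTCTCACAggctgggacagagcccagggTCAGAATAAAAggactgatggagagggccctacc
Lce1j (chr3:92790515-92790614, minus strand): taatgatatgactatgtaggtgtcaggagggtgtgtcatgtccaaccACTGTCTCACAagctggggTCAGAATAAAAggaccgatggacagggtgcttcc
ACTGTCTCACA, searched on both strands of 200 bases, was found in 8 of 13 Lce1 promoters in the table and in 0.0444% of 27025 promoters. TCAGAATAAAA was found in 8 of 13 and in 0.0703%. Both stretches were picked from these promoters and describe their likeness only.

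Few other genes of the epidermis were called. None of 27 epidermal differentiation genes was called by edgeR in the unpaired fit, and the median was 0.07. One was called lower by DESeq2, by limma-voom, with hair follicle scores as a covariate (median -0.07), without FL_UV 3 or cKO_UV 3, and with the replicate block, where it was the transcription factor gene Grhl3. Filaggrin (Flg) had 2018 ± 1408 CPM in cKO_UV and 1374 ± 1245 CPM in cKO_NoUV (SD, n = 4 each), a wide spread between libraries. Of 15 basal keratinocyte genes 1 was called lower, a share near the 5.15% of all genes. It was the stem cell factor Trp63, with 422, 381, 435 and 384 CPM in cKO_UV and 522, 589, 592 and 578 CPM in cKO_NoUV (log2 fold change -0.49, SE 0.14, adjusted p = 0.0378). The groups lay apart, but the call was lost without FL_UV 1, without cKO_NoUV 2, cKO_NoUV 3 or cKO_NoUV 4, and without any 1 of the cKO_UV libraries. With hair follicle and muscle marker scores as covariates 2 basal genes were called lower, and by limma-voom 3. Of 17 keratinocyte stress genes 1 was called higher, a share near the 4.57% of all genes, and 2 were called under the replicate block. The 1 riser was the urokinase receptor Plaur (log2 fold change 1.63, SE 0.34, adjusted p = 0.00752). The list's median was 0.74, with 13 members above 0 and 4 below. The protease Adamts1 was even across the exposed libraries, at 153, 148, 144 and 146 CPM in cKO_UV and 74.3, 47.6, 53.4 and 44.4 CPM in cKO_NoUV (log2 fold change 1.43, SE 0.17, adjusted p = 2.50e-04). Without cKO_NoUV 1, 4 of the 15 matrix protease and inhibitor genes were called higher, against 2 with all libraries, where 4.57% of all genes were called higher. DESeq2 and both covariate fits called 4, and limma-voom 5.

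Cell cycle genes depended on how the libraries were matched. None of 20 was called by edgeR in the unpaired fit, where 19 lay below 0 and the median log2 fold change was -0.70. The level ran from library to library over a wider range than UVB moved it: Ccnb1 (cyclin B1, needed to enter mitosis) had 23.9, 9.34, 14.1 and 2.98 CPM in cKO_UV replicates 1 to 4 and 51.4, 24.4, 38.2 and 9.17 CPM in cKO_NoUV replicates 1 to 4. The groups overlapped, while each exposed library was below the unexposed one of the same number. With the replicate number as a block 12 of 20 were called lower, against 1539 of all 19718 genes tested. Among the 12 were Ccnb1 (log2 fold change -1.37, SE 0.16, adjusted p = 6.26e-04), Ccna2 (-1.13, SE 0.17, adjusted p = 0.00249) and Mki67 (-0.63, SE 0.17, adjusted p = 0.0310). Pcna, a replication clamp and p53 target, was the 1 member above 0 in the unpaired fit (0.41, not called). With hair follicle and muscle marker scores as covariates the direction of the list turned: the median was 0.17, 1 member was called higher and none lower. With hair follicle scores alone the median was -0.50, with 1 called higher and none lower.

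**Figure D3:**
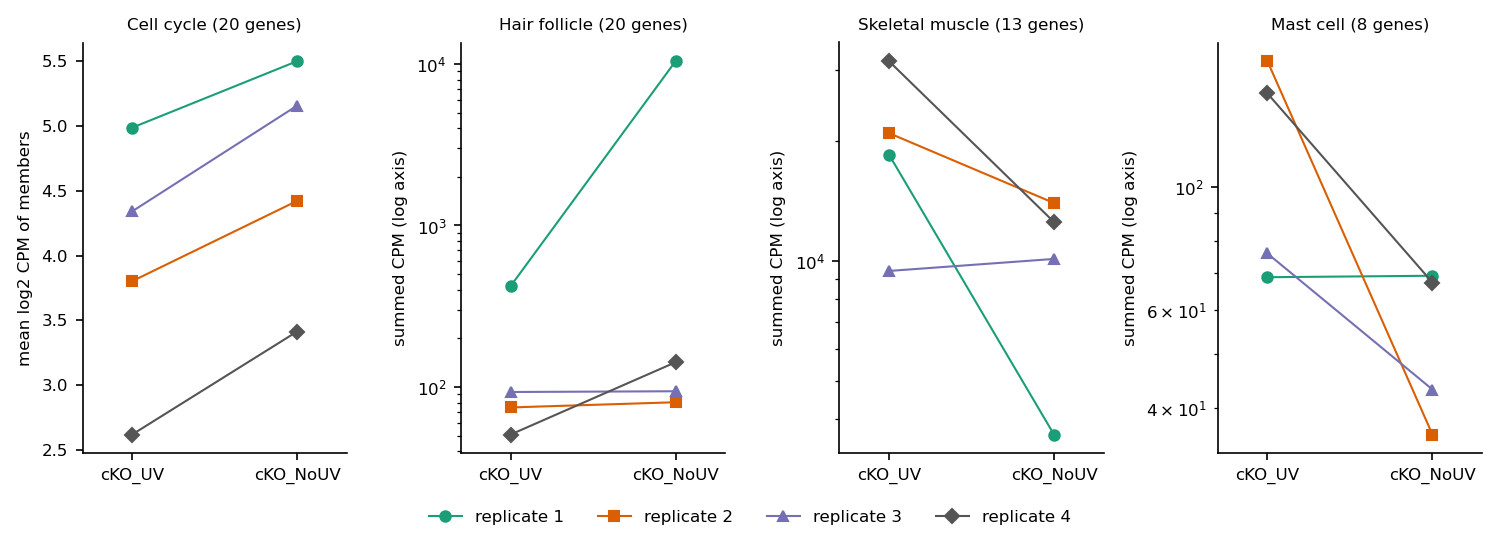
Cell cycle genes as the mean log2 CPM of 20 members, and hair follicle, skeletal muscle and mast cell markers as summed CPM on log axes, with lines joining cKO_UV and cKO_NoUV libraries of the same replicate number. All 4 cell cycle lines run lower in cKO_UV, and the hair follicle sum of cKO_NoUV 1 stands at 10405 CPM, far above every other library shown.

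Falls were concentrated among long genes. The span of each protein-coding gene, exons and introns together, was taken from GENCODE M21 on GRCm38. The median span was 9.43 kb for 458 genes called higher and 95.4 kb for 996 called lower, against 24.1 kb for all 15174 tested. Of genes spanning 200 to 500 kb, 24.8% were called lower and 0% higher. Of genes under 5 kb, 2.97% were called lower and 6.77% higher. The median log2 fold change was 0.13 under 5 kb, -0.07 at 20 to 50 kb, -0.32 at 100 to 200 kb and -0.41 at 200 to 500 kb, and the 177 genes of 500 kb or more were at -0.28. Examples at 500 kb or more were Ptprk, a receptor phosphatase spanning 523 kb, with 47.4 ± 7.11 CPM in cKO_UV and 103 ± 18.4 CPM in cKO_NoUV (SD, n = 4 each, log2 fold change -1.12, adjusted p = 3.47e-04), and the transcription factor gene Foxp1, spanning 597 kb, with 80.5 ± 14.3 CPM in cKO_UV and 159 ± 15.4 CPM in cKO_NoUV (log2 fold change -0.98, adjusted p = 0.00136). Among the genes described above, Trp63 spans 208 kb, Egfr 166 kb, Npas2 170 kb and Lrig1 95.6 kb, whereas Ccl7 spans 1.81 kb and Jun 3.19 kb. The Lce1 genes that fell are short, Lce1j spanning 1.68 kb.

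The same was seen library by library. The median log2 CPM of the 2158 genes of 100 kb or more, minus that of the 6715 genes under 20 kb, was 0.81, 0.84, 0.62 and 0.84 in cKO_UV, against 1.11, 1.28, 1.16 and 1.42 in cKO_NoUV. It was 0.64, 0.97, 0.66 and 0.60 in FL_UV and 1.40, 1.09, 1.17 and 1.11 in FL_NoUV. All 8 exposed libraries lay below all 8 unexposed ones. Across all settings and left-out libraries, 15.4% to 35.7% of genes of 100 kb or more and 0.849% to 4.47% of genes under 20 kb were called lower. Genes of different span also differ in level, with a median log2 CPM of 3.09 under 5 kb and 5.14 at 100 to 200 kb, and the part of level in the pattern was not tested.

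**Figure D4:**
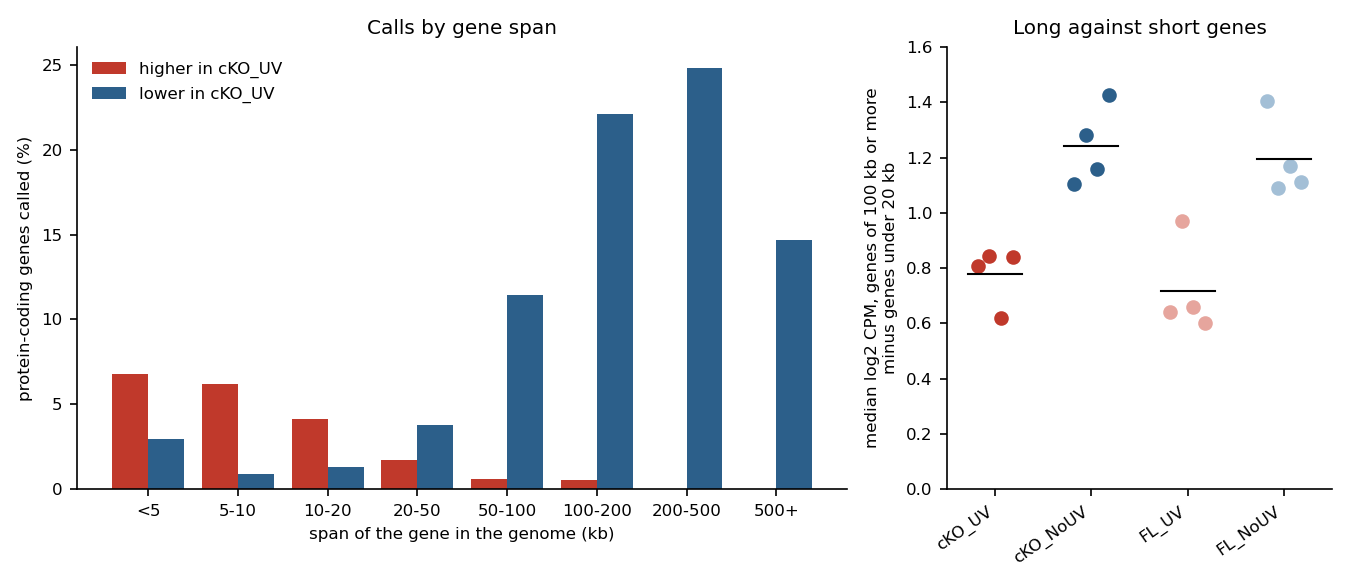
Left, percent of protein-coding genes called higher or lower in cKO_UV by the span of the gene in kb. Right, median log2 CPM of genes of 100 kb or more minus that of genes under 20 kb in each library, where cKO_UV lies at 0.62 to 0.84 and cKO_NoUV at 1.11 to 1.42, with bars at group means.

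Markers of other cell types differed between libraries. The 20 hair follicle genes all had lower fitted levels in cKO_UV, with a median log2 fold change of -4.68, none was called by edgeR in the unpaired fit, and cKO_NoUV 1 stood far above the other unexposed libraries. DESeq2 called 5 of them lower and the fit with hair follicle scores as a covariate 1. The median was 0.06 with those scores, 0.25 with muscle scores added and 0.02 by limma-voom, which weighted libraries by quality. The list's own genes formed the hair follicle scores, so the medians with those scores cannot test its fall. Krt33a, a hair keratin, had 0.247, 0.0801, 0.274 and 0.0993 CPM in cKO_UV and 203, 0.0393, 0.0334 and 0.251 CPM in cKO_NoUV. The 8 melanocyte genes summed to 70.2 to 170 CPM in cKO_UV, against 863 CPM in cKO_NoUV 1 and 96.0 to 113 CPM in the other cKO_NoUV libraries. Mitf (chr6:97807052-98021349), which directs melanocyte genes and is also active in other cells, was the 1 member called, with 33.9, 29.8, 26.2 and 48.7 CPM in cKO_UV and 114, 67.2, 59.2 and 83.9 CPM in cKO_NoUV (log2 fold change -1.22, SE 0.21, adjusted p = 0.00224). It was lower in all exposed libraries and was called in every fit. Mitf spans 214 kb, and 24.8% of protein-coding genes spanning 200 to 500 kb were called lower. The list's median, -2.04, was 0.46 with hair follicle scores as a covariate, 1.01 with muscle scores added, where 1 gene was called higher, and 0.22 by limma-voom.

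Mast cell proteases were higher in some exposed libraries. Mcpt4 had 22.0, 63.5, 28.7 and 52.6 CPM in cKO_UV, against 13.2, 8.88, 12.2 and 21.1 CPM in cKO_NoUV (log2 fold change 1.59, SE 0.38, adjusted p = 0.0164). The 8 mast cell genes summed to 68.9, 169, 76.0 and 148 CPM in cKO_UV and 69.3, 35.8, 43.2 and 67.4 CPM in cKO_NoUV. Of the 8, Mcpt4, Cma1, Tpsb2 and Cpa3 were called higher, against 4.57% of all genes. Kit, the growth factor receptor of mast cells, was at -0.65 and not called. The count was 0 without cKO_NoUV 2 or cKO_UV 2, 1 without cKO_NoUV 3 and 2 without cKO_UV 4. With hair follicle and muscle marker scores as covariates none was called, with Mcpt4 at a log2 fold change of 1.14 (adjusted p = 0.106), Cma1 at 1.23, Tpsb2 at 1.58 and Cpa3 at 0.93, and without the filter 1 was called. Cpa3 (1.47, adjusted p = 0.0455) was not called with the replicate block.

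Skeletal muscle lies under the skin, and its 13 marker genes summed to 18454, 20891, 9420 and 31661 CPM in cKO_UV, against 3659, 13949, 10098 and 12494 CPM in cKO_NoUV. The ranges overlapped, and 1 gene was called, against 4.57% of all genes called higher. It was Pvalb, the calcium buffer of fast fibres, with 507, 613, 267 and 1264 CPM in cKO_UV and 63.6, 200, 106 and 295 CPM in cKO_NoUV (log2 fold change 1.996, SE 0.57, adjusted p = 0.0399). That count was 2 without FL_NoUV 1, cKO_NoUV 4 or FL_UV 4, and 0 without FL_NoUV 2, FL_NoUV 3, FL_UV 1, FL_UV 3, cKO_NoUV 1, cKO_NoUV 2, cKO_NoUV 3, cKO_UV 1, cKO_UV 2 or cKO_UV 4. With the replicate block and by DESeq2 4 were called, by limma-voom 2, and none without the filter or in a fit of the 2 cKO groups alone. Over all genes tested the block called 2754, DESeq2 2984 and limma-voom 3810. With hair follicle and muscle marker scores as covariates none was called, the list's median was -0.09, against 0.97 without covariates, and Pvalb had a log2 fold change of 0.73 (adjusted p = 0.298), a fit in which the list's own genes formed a covariate. Ucp3, a mitochondrial carrier of muscle and brown fat, also rose, with 30.6, 16.2, 27.4 and 55.9 CPM in cKO_UV and 2.90, 4.20, 6.99 and 7.79 CPM in cKO_NoUV (log2 fold change 2.57, SE 0.49, adjusted p = 0.00440). The part of muscle content in the rises of Ucp3 and Trim63 was not tested beyond the fit with hair follicle and muscle marker scores, where Ucp3 was called and Trim63 was not.

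Of 10 adipocyte genes 1 was called higher in the unpaired fit, 8 with the replicate block, 3 by DESeq2 and 4 by limma-voom. Over all genes tested these fits called 901, 1215, 1475 and 1887 higher. With the block the adipocyte genes called included Cidec (1.35, adjusted p = 0.00118) and Fabp4 (0.82, adjusted p = 0.00576). In the unpaired fit the call was Plin4, lost without cKO_NoUV 1, cKO_NoUV 2, cKO_NoUV 3, cKO_UV 2, cKO_UV 3 or cKO_UV 4, while 5 were called without cKO_UV 1 and 2 without cKO_NoUV 4, and 1 was called lower without cKO_NoUV 1 or cKO_UV 4, in both covariate fits and by limma-voom. Plin4 was also lost without the filter, in a fit of the 2 cKO groups alone and with hair follicle and muscle marker scores as covariates, where the list's median was 0.41, against 0.84 without covariates. The adipocyte genes summed to 2654, 4223, 2663 and 5922 CPM in cKO_UV and 1123, 2409, 2084 and 3309 CPM in cKO_NoUV.

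Apart from the mast cell list, no list of leukocyte markers held a gene called in the unpaired edgeR fit. None of 13 macrophage and monocyte genes, 10 dendritic and Langerhans cell genes, 13 T cell genes, 5 B and plasma cell genes or 6 neutrophil genes was called there. DESeq2 and limma-voom each called 1 B cell and 1 neutrophil gene higher, and the fit with hair follicle and muscle marker scores as covariates 1 neutrophil gene. The dendritic list's median was 0.16, against -0.18 in that fit. All 9 listed neutrophil genes, tested or not, summed to 29.5, 35.2, 30.3 and 14.4 CPM in cKO_UV and 22.9, 9.04, 17.3 and 8.25 CPM in cKO_NoUV. The median log2 fold change of the 6 tested neutrophil genes was 1.22, and 1 was called without FL_NoUV 4 or cKO_UV 4. One B cell gene was called without FL_NoUV 3, FL_NoUV 4 or cKO_NoUV 4. The sums for macrophage genes were 402, 1331, 857 and 933 CPM in cKO_UV and 441, 557, 996 and 752 CPM in cKO_NoUV, overlapping ranges. No gene was called in the unpaired edgeR fit among 12 fibroblast, 11 sebaceous gland or 6 erythroid markers. With the replicate block 1 fibroblast gene (Postn) was called higher and 1 erythroid gene (Hbb-bs) lower. Without cKO_UV 1, 1 fibroblast gene was called higher, and by limma-voom or with hair follicle and muscle marker scores as covariates 1 erythroid gene lower. Of 14 prostaglandin genes Ptger1, a receptor, was called higher and Hpgd, which inactivates prostaglandins, lower, single calls against 4.57% and 5.15% of all genes. Neither call held without cKO_NoUV 2, cKO_NoUV 3, cKO_NoUV 4 or cKO_UV 1, Ptger1 was also lost without cKO_UV 3 or cKO_UV 4 and Hpgd without cKO_UV 2 or cKO_UV 3, and 2 genes were called lower without cKO_NoUV 1. DESeq2, limma-voom, the replicate block, the fit without the filter and the fit with hair follicle scores each called 2 lower. Ptger1 was also lost without the filter and Hpgd in a fit of the 2 cKO groups alone.

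Genes that mark position along the body also differed. Hoxc10, a gene of the hind body, had 0.0823, 0.0801, 0 and 0 CPM in cKO_UV, against 0.0829, 4.40, 3.14 and 4.81 CPM in cKO_NoUV. All unexposed libraries but cKO_NoUV 1 were far above the rest, and the call (adjusted p = 0.0161) was lost without cKO_UV 4, without the filter, by limma-voom and with hair follicle and muscle marker scores as covariates. Hoxa9 had 2.59, 3.49, 2.47 and 3.08 CPM in cKO_UV and 1.20, 13.8, 18.6 and 15.9 CPM in cKO_NoUV and was not called (adjusted p = 0.0989). Of 14 Hox genes 2 were called lower, Hoxc10 and Hoxa5, against 5.15% of all genes, and 5 were called lower without cKO_NoUV 1. The count was 1 without cKO_NoUV 3, cKO_NoUV 4, cKO_UV 2 or cKO_UV 4 and with those scores, and 0 without the filter or in a fit of the 2 cKO groups alone. The part of skin site in the other results was not tested.

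The response was set beside that of the floxed skin without Cre, which had its own unexposed libraries. There 1502 genes (7.62%) were called, 695 higher (3.52%) and 807 lower (4.09%), a total that was 904, 1000 and 884 without FL_NoUV 2, FL_NoUV 4 or FL_UV 4. Of the calls 1045 were shared, 54.5% of those in cKO skin and 69.6% of those in FL skin, and all 1045 had the same direction. Of the 1917 genes called in cKO skin 1903 had the same sign in FL skin.

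Tested directly, the UVB effect in cKO minus that in FL was called for 0 of 19718 genes by edgeR (0%). DESeq2 and limma-voom also called 0. At an unadjusted p under 0.05 edgeR had 248 genes (1.26%). The median width of the 95% interval of that difference over the genes called in cKO was 1.18 on the log2 scale. The smallest unadjusted p-values belonged to Itgb3 (difference -1.09, 95% interval -1.67 to -0.50), Osr1, 5730596B20Rik, Slc25a24, Nexmif and Dnd1, none of which was called. Itgb3, an integrin subunit of platelets and endothelium, had 7.95 ± 0.77 CPM in cKO_UV and 13.1 ± 1.32 CPM in cKO_NoUV, and 12.8 ± 1.54 CPM in FL_UV and 9.81 ± 3.03 CPM in FL_NoUV (SD, n = 4 each).

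Among the genes described above, Atf3 had a log2 fold change of 2.09 in cKO and 3.10 in FL skin, a difference of -1.01 (95% interval -1.77 to -0.25). Sele had 2.71 in cKO and 1.44 in FL skin, a difference of 1.26 (95% interval -0.08 to 2.61). Mitf had -1.22 in cKO and -0.44 in FL skin, a difference of -0.78 (95% interval -1.41 to -0.15). Irf7, the amplifier of type I interferon, had -0.09 in cKO and 1.07 in FL skin, a difference of -1.15 (95% interval -1.90 to -0.41). The adjusted p of all 4 differences was 1.00, so none passed the test. Il6, Ccl7 and Cxcl1 had differences of 0.41, 0.38 and -0.80, and their 95% intervals included 0. Of the immediate early genes 9 were called in cKO and 16 in FL skin, with 4 of 23 differences at an unadjusted p under 0.05 and none called.

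**Figure D5:**
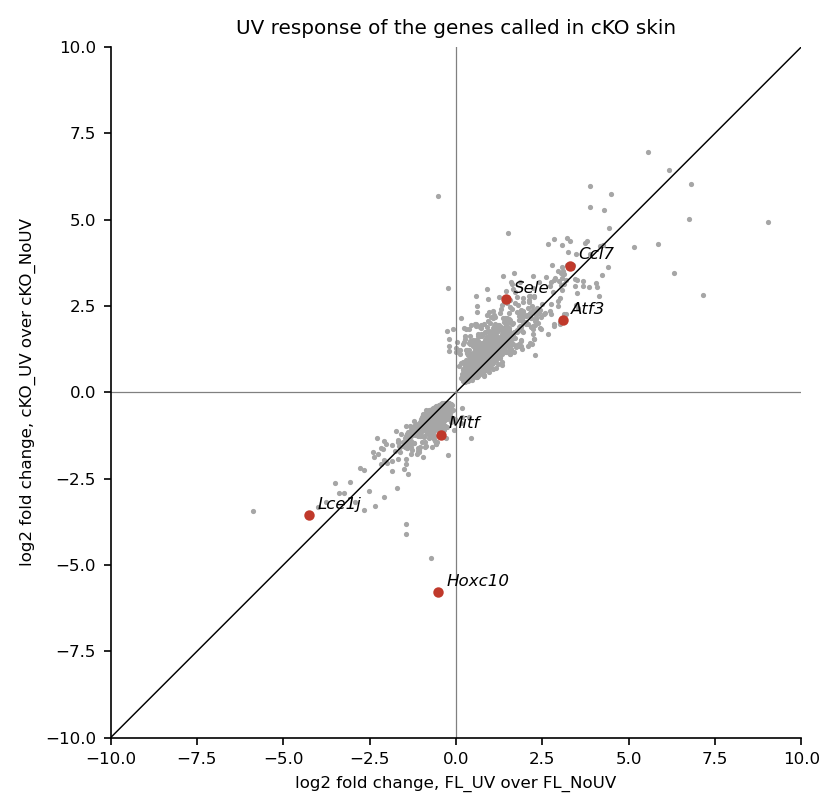
Log2 fold change of cKO_UV over cKO_NoUV (vertical) against FL_UV over FL_NoUV (horizontal) for the 1917 genes called in cKO skin, with the line of equal change. Nearly all points share their sign (1903), and Hoxc10 lies far from the line.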

How the data were processed

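RNA was extracted from whole skin, depleted of ribosomal RNA, made into stranded libraries and read in pairs of 100 bases, per the labels' protocols. Per the submitters' processing notes, the tools were cutadapt 4.6, HISAT2 2.1.0 and featureCounts of Subread (version not given), and the build was GRCm38. The deposited values are raw counts per gene, made by the authors with no normalization. How strand and multiply aligned reads were counted is not given in the sources used here, so close copies and antisense genes have uncertain counts. Positions in the count table did not match GRCm38, so spans and positions come from GENCODE M21 by gene identifier.

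Counts of 57126 genes were filtered with filterByExpr, scaled by TMM and tested with edgeR 4.0.16 (quasi-likelihood, R 4.3.3) over all 16 libraries of the keratinocyte experiment, 1 coefficient per group, with Benjamini-Hochberg adjustment over the 19718 genes kept and a threshold of 0.05. The other 12 skin libraries of the series, from wild-type and VISTA knockout mice, were not used. DESeq2 1.42.0, limma 3.58.1 and other alternatives were run. The limma-voom fit weighted each library by its estimated quality and used robust variance shrinkage, so it changes more than the tool. CPM were scaled by TMM, and log2 CPM used a prior count of 3. A count of 3 was 0.100 to 0.411 CPM in the cKO libraries. No pair of libraries of the same group agreed within sampling noise.

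Same-numbered cKO libraries deviated together (correlations of deviations from group means 0.563, 0.317, 0.348 and 0.664), each cKO_UV library matching its own number best, and were treated as paired in the block fit. The labels do not say what the numbers share. In FL skin the correlations were -0.161, -0.284, 0.694 and 0.526, and the block was fitted there too. The p-values of the block fit rest on a pairing that was seen in these data and that no label states.

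The naming rule took Vsir, the 10 called genes with the highest and the 10 with the lowest fold changes (groups apart, mean log2 CPM 2 or more), up to 4 genes of smallest p in each of 40 lists, the 6 of smallest p for the difference between genotypes, and 14 fixed genes. Other list members are named as members of a count. Ptprk and Foxp1 were chosen after their values were seen. The members and lists were chosen with earlier results of these data known. The result of 1 list is not reported here.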

Additional observations from a re-analysis of the deposited data

Results flagged for a closer look

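Of 356 sets of 4 library values, each a named gene in cKO_UV or cKO_NoUV, 33 held a library whose gap to its nearest neighbour, as a share of the whole range on a log scale, was over Dixon's 95% critical value. Chance gives about 1 such flag in 20 groups. The exposed libraries held these. Cd4 was at 4.94 CPM in cKO_UV 1 and at 11.1 to 12.7 CPM in its group otherwise. Cd5 stood at 2.28 CPM in cKO_UV 2 and at 1.10 to 1.24 CPM elsewhere in the group. Erbb3 had 191 CPM in cKO_UV 3, against 152 to 155 CPM in the other cKO_UV libraries. H2-D1 was at 398 CPM in cKO_UV 1 and at 581 to 626 CPM in its group otherwise. Hspb1 had 151 CPM in cKO_UV 1, against 289 to 294 CPM in the other cKO_UV libraries. Il1a stood at 19.9 CPM in cKO_UV 3 and at 8.84 to 9.75 CPM elsewhere in the group. Irf1 was at 16.1 CPM in cKO_UV 1 and at 35.4 to 41.2 CPM in its group otherwise. Lcn2 stood at 11.5 CPM in cKO_UV 3 and at 9.29 to 9.55 CPM elsewhere in the group. Nexmif had 0.549 CPM in cKO_UV 3, against 1.19 to 1.32 CPM in the other cKO_UV libraries. Retnlg was at 0 CPM in cKO_UV 3 and at 0.481 to 0.617 CPM in its group otherwise.

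Among the unexposed libraries, 18 flags had cKO_NoUV 1 apart. Cdh3 was at 126 CPM in cKO_NoUV 1 and at 59.1 to 66.0 CPM in its group otherwise. Foxn1 stood at 89.8 CPM in cKO_NoUV 1 and at 20.1 to 22.9 CPM elsewhere in the group. Hoxa7 had 30.5 CPM in cKO_NoUV 1, against 76.5 to 84.8 CPM in the other cKO_NoUV libraries. Hoxa9 was at 1.20 CPM in cKO_NoUV 1 and at 13.8 to 18.6 CPM in its group otherwise. Hoxc10 had 0.0829 CPM in cKO_NoUV 1, against 3.14 to 4.81 CPM in the other cKO_NoUV libraries. Hspb1 stood at 106 CPM in cKO_NoUV 1 and at 199 to 218 CPM elsewhere in the group. Irf9 was at 41.0 CPM in cKO_NoUV 1 and at 29.7 to 31.1 CPM in its group otherwise. Krt33a stood at 203 CPM in cKO_NoUV 1 and at 0.0334 to 0.251 CPM elsewhere in the group. Krt81 had 55.6 CPM in cKO_NoUV 1, against 0 to 0.126 CPM in the other cKO_NoUV libraries. Krt83 was at 57.9 CPM in cKO_NoUV 1 and at 0 to 0.251 CPM in its group otherwise. Mlana had 38.1 CPM in cKO_NoUV 1, against 0.550 to 0.803 CPM in the other cKO_NoUV libraries. Mt1 stood at 304 CPM in cKO_NoUV 1 and at 92.3 to 113 CPM elsewhere in the group. Oca2 was at 21.4 CPM in cKO_NoUV 1 and at 0 to 0.167 CPM in its group otherwise. Pla2g4a stood at 36.7 CPM in cKO_NoUV 1 and at 52.2 to 52.5 CPM elsewhere in the group. Plk2 had 60.6 CPM in cKO_NoUV 1, against 28.4 to 29.8 CPM in the other cKO_NoUV libraries. Pparg was at 27.2 CPM in cKO_NoUV 1 and at 45.0 to 48.4 CPM in its group otherwise. Slc4a1 had 8.42 CPM in cKO_NoUV 1, against 0.100 to 0.293 CPM in the other cKO_NoUV libraries. Trim63 stood at 3.36 CPM in cKO_NoUV 1 and at 11.7 to 14.6 CPM elsewhere in the group.

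The other unexposed libraries held the remaining flags. C1qa was at 51.8 CPM in cKO_NoUV 3 and at 21.6 to 24.1 CPM in its group otherwise. Dnajb9 stood at 61.6 CPM in cKO_NoUV 2 and at 47.8 to 48.5 CPM elsewhere in the group. Hbegf had 7.41 CPM in cKO_NoUV 4, against 13.4 to 14.6 CPM in the other cKO_NoUV libraries. Jchain was at 8.29 CPM in cKO_NoUV 4 and at 2.32 to 2.86 CPM in its group otherwise. Sprr2a1 had 0.167 CPM in cKO_NoUV 3, against 0.0393 to 0.0419 CPM in the other cKO_NoUV libraries.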

How the results depend on the processing

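Main counts of genes called for UVB were 1917 in cKO skin (901 higher, 1016 lower) and 1502 in FL skin. DESeq2 called 2984 in cKO (1475 higher) and 2443 in FL, limma-voom 3810 (1887 higher, 1923 lower) and 3352, and edgeR without the filter 1276 (546 higher) and 992. The cKO libraries alone with the replicate block gave 3685 (1693 higher, 1992 lower). The replicate block over all groups gave 1539 lower in cKO and 2362 in FL, the FL groups alone 953, and a hair follicle covariate 2445 in FL. Leaving out single libraries gave 1178 to 2424 calls in cKO, 498 to 1093 higher, 625 to 1331 lower, and 884 to 1696 in FL. Which of these differences reflect fewer libraries was not tested. The block was used because same-numbered cKO libraries deviated together, and among called named genes it lost Ifit1, Stat2, Cpa3 and Trim63, and among other list members Fosl1, Lif and Osm. Hair follicle and muscle covariates lost 20 called named genes, with Pvalb at 0.73, against 1.996 without covariates, Vcam1 at 0.75 against 1.40 and Tsc22d3 at 0.82 against 1.34. A hair follicle covariate alone lost 1. No difference between genotypes in the UVB effect was called by edgeR, DESeq2 or limma-voom under any setting. Genes with an unadjusted p under 0.05 ranged from 151 of 16309 (filter at a mean CPM of at least 1) to 1884 of 46344 (no filter). Of 82 called named genes 49 were called in every fit with a library left out and 45 in every fit, 12 being lost without cKO_NoUV 1. Mlana, a melanocyte gene, reversed to a log2 fold change of 1.79 with hair follicle and muscle covariates, against -2.13 (not called) without covariates, and the cause was not tested. The fit of the cKO libraries alone with the block, and 2 fits that each leave out a pair of libraries, were chosen after seeing the data. Library cKO_UV 3, with 7509742 reads, limits low genes most, 3 counts there being 0.411 CPM.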
